A study of Mus musculus with 2 samples.

Results

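The 34 genes described here encode the constitutive proteasome: Psma1 to Psma7 and Psmb1 to Psmb7 of the 20S core, and Psmc1 to Psmc6 and Psmd1 to Psmd14 of the 19S cap and its assembly. They were taken by symbol from a list of members, and all 34 were found among the 52636 genes of the count matrices. The data were single-cell RNA counts from the intestines of 2 C57BL/6 mouse embryos at stage E18.5. Both embryos lacked Mlkl, which encodes the pore-forming effector of necroptosis. The embryo that was Mlkl -/- alone is called Mlkl-null. The other was Casp8 C362A/C362A Mlkl -/-, which puts alanine for the cysteine that caspase-8 needs to cut, here called Casp8-mutant. As both carried the Mlkl deletion, no embryo of wild-type genotype entered the comparison, and there was 1 embryo per genotype. The labels name whole intestine in one place and small intestine in another, and state no promoter, transgene or pooling. No difference has a replicate check, no test was made, and every interval is a 95% interval of counting error alone.

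The proteasome is the chamber in which cells cut up proteins tagged with ubiquitin. Its 20S core is a barrel of outer alpha rings, which gate the entrance, and inner beta rings, of which Psmb5, Psmb6 and Psmb7 carry the cutting sites. The 19S cap sits on the barrel: ATPases of its base unfold and thread the substrate, other base subunits bind ubiquitin, and lid subunits include the enzyme that removes the ubiquitin chain. In cells exposed to interferon the cutting subunits can be replaced by Psmb8, Psmb9 and Psmb10, forming the immunoproteasome, whose products feed antigen presentation. When proteasome activity is short, the transcription factor Nfe2l1 (also called Nrf1) is known to raise transcription of many constitutive subunit genes through antioxidant response elements.

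The promoters of 4 members are shown, since the values below turn on these genes: Psmb5 and Psmb6 encode cutting subunits, and Psma5 and Psmb3 had the highest ratios of the list in epithelial-like cells. Each sequence is the stretch just upstream of the gene on its own strand, 5′ to 3′, from RefSeq (GRCm38.p6), without the bases that GENCODE places inside the gene. Capitals mark the letters TGACNNNGC or TGAGNNNGC (antioxidant response element core), CCAAT (the NF-Y box) or GAAANNGAA (a shortened interferon-stimulated response element), each read on both strands.
Psmb5, chr14:54618023-54618245, minus strand: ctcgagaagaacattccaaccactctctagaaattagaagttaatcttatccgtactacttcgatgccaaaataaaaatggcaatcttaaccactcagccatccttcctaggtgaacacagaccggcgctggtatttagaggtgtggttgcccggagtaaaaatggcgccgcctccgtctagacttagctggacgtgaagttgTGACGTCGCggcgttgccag
Psmb6, chr11:70525107-70525356, plus strand: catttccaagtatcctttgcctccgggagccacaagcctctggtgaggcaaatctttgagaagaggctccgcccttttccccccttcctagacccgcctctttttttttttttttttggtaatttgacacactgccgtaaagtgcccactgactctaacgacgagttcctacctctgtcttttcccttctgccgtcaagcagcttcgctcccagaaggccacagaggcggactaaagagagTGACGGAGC
Psma5, chr3:108256676-108256925, plus strand: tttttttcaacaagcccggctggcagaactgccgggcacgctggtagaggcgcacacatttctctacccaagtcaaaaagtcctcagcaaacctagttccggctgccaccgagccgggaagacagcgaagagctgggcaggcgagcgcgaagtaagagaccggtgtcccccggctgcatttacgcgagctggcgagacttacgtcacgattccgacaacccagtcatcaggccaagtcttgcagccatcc
Psmb3, chr11:97703184-97703398, plus strand: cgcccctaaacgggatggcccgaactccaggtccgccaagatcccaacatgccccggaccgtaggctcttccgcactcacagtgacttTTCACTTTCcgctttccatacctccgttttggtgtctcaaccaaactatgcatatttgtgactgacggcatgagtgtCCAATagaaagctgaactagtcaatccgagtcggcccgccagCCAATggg

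Psmb5 and Psmb6 each held TGACNNNGC close to the start of the gene. No match to these letters lay in the Psma5 window, and the Psmb3 stretch held 2 CCAAT boxes and a GAAANNGAA match on the opposite strand. The full Psmb3 window also held TGAGNNNGC, which is not within the printed stretch. Of the 34 members, 28 had a RefSeq window of 250 bases upstream. For the counts below these windows were read in full, with any bases that GENCODE places inside the gene. TGACNNNGC was found in 5 of these 28 (17.9%, in Psmb5, Psmb6, Psmc6, Psmd9 and Psmd12), against 11.5% of all 27025 genes with such a window. TGAGNNNGC was found in 8 of 28 (28.6%) against 16.3%, and at least 1 of these forms in 11 of 28 (39.3%) against 25.7%. CCAAT was found in 11 of 28 (39.3%) against 37.5%, and GAAANNGAA in 3 of 28 (10.7%) against 8.18%. Among the 5 genes of the immunoproteasome and its PA28 activator, the windows held no antioxidant core and no GAAANNGAA, and 1 held CCAAT. These matches describe letters only and are not evidence of binding.

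There were 1478 barcodes with 6290008 unique molecular identifiers (UMIs, each counting 1 captured transcript end) from the Mlkl-null embryo and 1014 with 2804929 from the Casp8-mutant embryo. After filtering, 1435 and 873 cells remained, and 2 barcode sequences occurred in both libraries. Of each pair of values below, the Mlkl-null one comes first. Marker genes placed 1187 and 589 cells in an epithelial-like class, 63 and 58 in a fibroblast-like class and 61 and 110 in a myeloid-like class, and only these classes reached 50 cells in both libraries. All 32 epithelial markers had UMIs in the epithelial-like class, with summed levels of 60813 and 47453 UMIs per 1 M. Xist had 2 and 8271 UMIs and the Y-linked Ddx3y 276 and 2, so sex and genotype cannot be told apart. Casp8 had 399 and 232 UMIs and Mlkl 1 and 13. Since such tags come from transcript ends, they cannot show a base substitution in Casp8 and may lie outside what was deleted from Mlkl, and neither count tests a genotype.

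All 34 members were measured in epithelial-like cells of both libraries. A level here is a gene's summed UMIs per 1 M UMIs of the class (CPM). A gene was tested for size with at least 20 UMIs over both libraries, and was called higher or lower in the Casp8-mutant library at 1.5-fold or more with an interval that left out 1. By this rule 6 of the 34 members were higher, against 22.8% of the 13974 genes tested, and 0 were lower, against 27.5%. The share that was higher is near that background. The median log2 ratio of the members was 0.27, against -0.17 over all genes tested, and 27 of 34 ratios lay above 1, against 43.8% of all genes. Summed over the list, the members took 3123 CPM (3076 to 3171) and 3886 CPM (3801 to 3973), a ratio of 1.24 (1.21 to 1.28). Other settings moved this ratio to either side of its interval, as given below. It fell below the interval with called doublets kept and cells clustered anew, and rose above it with other scalings. The ratio was larger for the core than for the cap: the 20S core took 1841 and 2386 CPM, a ratio of 1.30 (1.252 to 1.34), and the 19S genes with their assembly factors 1282 and 1500.5 CPM, a ratio of 1.17 (1.12 to 1.22).

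**Figure D1:**
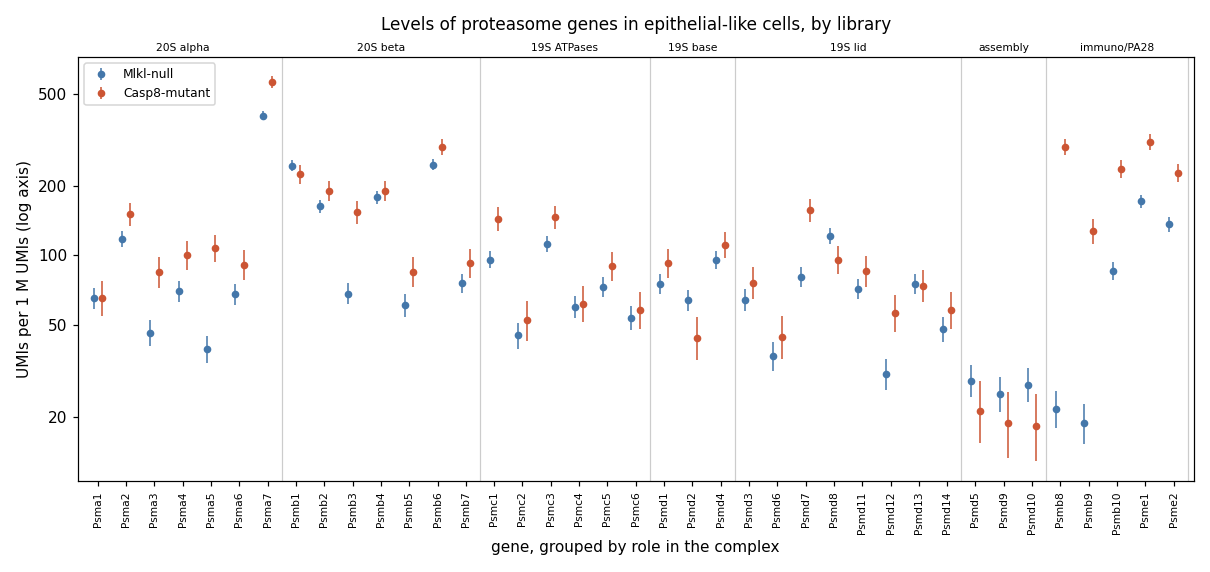
Levels of the 34 constitutive members and the 5 immunoproteasome and PA28 genes in epithelial-like cells, in UMIs per 1 M UMIs on a log axis, grouped by role. Points are the 2 libraries and bars are exact 95% Poisson intervals of counting error. Psma5 and Psmb3 stand apart among the constitutive genes, and Psmb8 and Psmb9 show the widest separation of all genes drawn.

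This pooled difference did not recur in each pairing of epithelial-like clusters between the libraries. The class was made of different clusters in the libraries: nearly all Mlkl-null cells lay in clusters 1, 2, 3, 4, 5, 9, 10 and 13 and Casp8-mutant cells in clusters 8, 18, 20, 21 and 23, of which cluster 8 held 6 and 114 cells and cluster 18 held 1 and 169. After the data were seen, 4 pairings were therefore made of clusters with the same genes among their 10 leading genes, which left out clusters 4, 5, 9 and 21. Those left out held unequal parts of the libraries: 82, 306 and 167 Mlkl-null cells in clusters 4, 5 and 9, and 13 Casp8-mutant cells in cluster 21. Their Mlkl-null levels were 3524, 2685 and 1978 CPM, so the pairings do not add up to the pooled ratio. In clusters led by Tff3 and Muc2, secreted products of goblet cells (92 and 114 cells), the members took 3546 and 3087 CPM, a ratio of 0.871 (0.813 to 0.932). In clusters led by Ranbp1 and Ptma, genes abundant in dividing cells (120 and 169 cells), they took 4362 and 4409 CPM, a ratio of 1.011 (0.967 to 1.06). In clusters led by Gpx3, a secreted glutathione peroxidase (290 and 183 cells), they took 2976 and 2995 CPM, a ratio of 1.007 (0.937 to 1.08). The sides of the Gpx3 pairing were unlike. The Casp8-mutant cluster 23 also had Apoa1 and Apoa4 among its leading genes, and the Mlkl-null clusters 3 and 13 had neither. In clusters led by the nuclear RNAs Rn7sk and Gm23935 (130 and 110 cells), the members took 2142 and 4305 CPM, a ratio of 2.01 (1.84 to 2.19). The sides of this pairing were also unlike. Mlkl-null cluster 10 had 16 epithelial markers detected in at least 25% of its cells, with Fabp1 among its leading genes. Casp8-mutant cluster 20 had 26 detected and no epithelial marker among its leading genes. The pairing was made by nuclear RNAs, and whether both sides hold the same kind of cell was not tested. So the summed level was higher in the Casp8-mutant library in 1 pairing, lower in 1, and with an interval that included 1 in the other two. Leaving out the clusters led by nuclear RNAs gave a pooled ratio of 1.19.

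**Figure D2:**
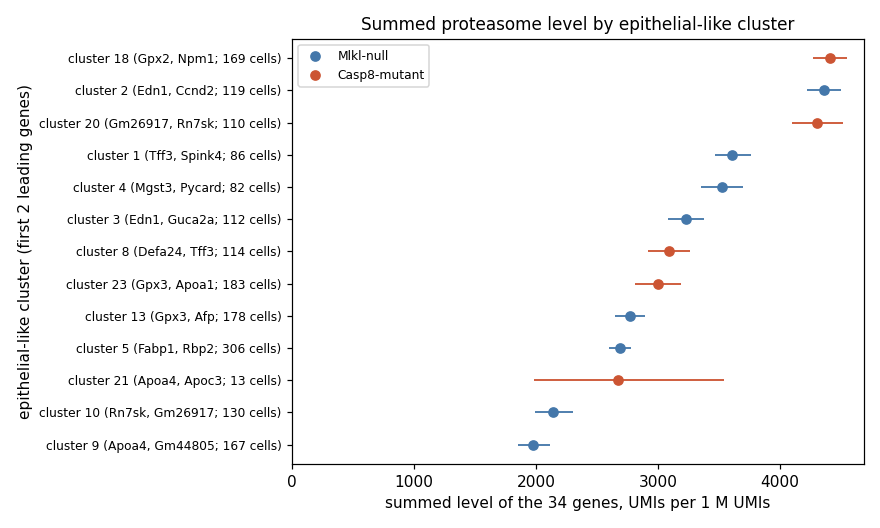
Summed level of the 34 genes in each epithelial-like cluster with at least 10 cells of a library, in UMIs per 1 M UMIs. Points are coloured by library, bars are exact 95% Poisson intervals and labels give the first leading genes and the cell number. Clusters 2 and 18, of different libraries, lie together near the top at 4356 and 4409, and the Rn7sk-led clusters 10 and 20 lie far apart at 2142 and 4305.

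By member, the pairings held 1 higher and 1 lower gene for Tff3 and Muc2 (9.54% and 24.8% of 6790 genes tested), 2 and 4 for Ranbp1 and Ptma (15.6% and 28.6% of 9119), 4 and 2 for Gpx3 (8.88% and 17.1% of 8000), and 19 and 0 of 32 measured members for Rn7sk and Gm23935 (27.2% and 24.1% of 5503). The member medians were -0.21, -0.0029, 0.09 and 0.94 on the log2 scale, beside -0.39, -0.34, -0.25 and -0.05 over all genes tested. Of 32 members measured in all pairings, 4 had a ratio above 1 in each (Psma2, Psma5, Psmc1 and Psmd14, named after their values were seen) and 0 had a ratio below 1 in each. No member was called higher in all 4 pairings. The same counts over all genes were not made, so these counts across pairings have no background. Other measures of the class also differed between the libraries. Median depth was 3905 and 2513 UMIs per cell, ribosomal protein genes took 9.03% and 13.9% of UMIs, mitochondrial genes 1.23% and 0.645%, haemoglobin genes 0.307% and 1.06%, and the nuclear RNAs 0.318% and 0.608%. Erythroid markers (9 of 9 matched found in each library) summed to 3096 and 10565 CPM, and granulocyte markers (10 and 14 of 14) to 34.1 and 3614 CPM, with Csf3r, Cxcr2, Elane and Mpo at 0 in Mlkl-null. Their part in the pooled difference was not tested.

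The alpha ring had the highest median of the groups, 0.48 on the log2 scale, with 2 of 7 genes higher and all 7 ratios above 1. Psma5 (ENSMUSG00000068749, chr3:108256926-108279974, plus strand, GRCm38) was at 39.1 CPM (34 to 44.8) and 107 CPM (93.5 to 122), a ratio of 2.74 (2.26 to 3.33), the highest of the 34. It was called higher in 3 pairings, with ratios of 2.26 to 6.64, and its ratio was 1.04 in the Tff3 and Muc2 pairing. Its exons overlap 1700010K24Rik on the opposite strand, and the sources used here do not say whether counting used strand. Exons of Psma4, Psmb7, Psmc3, Psmd1, Psmd3, Psmd9 and Psmd13 also overlap a gene on the opposite strand. Psma3 (ENSMUSG00000060073, chr12:70974621-70996347, plus strand) was at 46.1 and 84.1 CPM, a ratio of 1.83 (1.49 to 2.23), but its pairings ran from 0.813 to 2.77 and 1 of 4 was called higher. With doublets kept its ratio was 1.29, outside the rule. Psma7, the gene with the most UMIs of the list, was at 402 and 559.9 CPM, a ratio of 1.39 (1.30 to 1.499), below the size rule. The ratios of Psma1, Psma2, Psma4 and Psma6 lay between 1.0095 and 1.43.

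The beta ring held 1 higher gene of 7, with a median of 0.26. Psmb3 (ENSMUSG00000069744, chr11:97703399-97713500, plus strand), a structural beta subunit, was at 68.1 CPM (61.3 to 75.5) and 153 CPM (136 to 171), a ratio of 2.25 (1.92 to 2.62). It was called higher in 3 pairings, and its ratio was 0.991 in the Gpx3 pairing. None of the 3 cutting subunits met the size rule. Psmb5, with chymotrypsin-like activity, was at 60.7 and 84.6 CPM, a ratio of 1.40 (1.15 to 1.68). Psmb6, with caspase-like activity, was at 246 and 294 CPM, a ratio of 1.196 (1.08 to 1.32), and Psmb7, with trypsin-like activity, at 75.4 and 92.5 CPM, a ratio of 1.23 (1.03 to 1.46). In the Rn7sk and Gm23935 pairing these 3 genes were at 2.33, 2.19 and 2.54, and in the Ranbp1 and Ptma pairing at 0.890, 0.895 and 0.977. Psmb1, Psmb2 and Psmb4 lay between 0.916 and 1.17. Psmb1 was called lower in the Gpx3 pairing (0.53, 0.373 to 0.723) and higher in the Rn7sk and Gm23935 pairing (2.02, 1.42 to 2.94), as was Psmb2 (0.603 and 2.85). Reads of Psmb6 may be shared with its copies: Psmb6-ps had 20.6 and 51.2 CPM and Psmb6-ps2 31.1 and 57.6 CPM.

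The base ATPases held 1 higher gene of 6, with a median of 0.26 and all 6 ratios above 1. Psmc1 (ENSMUSG00000021178, chr12:100110154-100123405, plus strand) was at 95.7 and 144 CPM, a ratio of 1.503 (1.296 to 1.74), just inside the size rule. It fell outside the rule with doublets kept (1.48), at a coarser clustering (1.49), in thinned cells (1.43), without the nuclear-RNA-led clusters (1.34) and without the 10 deepest cells of each library (1.46). Its ratio lay above 1 in all 4 pairings, from 1.09 to 1.98. Psmc2 to Psmc6 lay between 1.03 and 1.30. Of the other base subunits, none of 3 met the rule. Psmd4, a ubiquitin receptor, had a ratio of 1.17 (0.99 to 1.36) and the scaffold gene Psmd1 1.23 (1.03 to 1.47). The scaffold gene Psmd2 lay on the other side at 63.7 and 43.8 CPM, a ratio of 0.691 (0.538 to 0.871), and was called lower in the Tff3 and Muc2 pairing (0.481) and the Ranbp1 and Ptma pairing (0.455).

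The lid held 2 higher genes of 8, with a median of 0.27. Psmd7 (ENSMUSG00000039067, chr8:107580381-107588464, minus strand), the partner of the deubiquitinase subunit, was at 80.5 CPM (73.1 to 88.5) and 156 CPM (139.7 to 175), a ratio of 1.94 (1.68 to 2.25). The scaffold gene Psmd12 (ENSMUSG00000020720, chr11:107479484-107504362, plus strand) was at 30.5 and 56.1 CPM, a ratio of 1.84 (1.43 to 2.35). Each was called higher in 2 of the 4 pairings, and each had a ratio below 1 in the Tff3 and Muc2 pairing (0.742 and 0.881). Psmd14, the deubiquitinase itself, had a ratio of 1.21 (0.965 to 1.51), and Psmd8 0.789 (0.668 to 0.926). Psmd5, Psmd9 and Psmd10 encode chaperones that help the base to assemble and are not part of the finished complex. Their ratios were 0.745, 0.752 and 0.668, a median of -0.43, and none of the 3 met the size rule. Summed, they took 81.3 and 58.1 CPM, a ratio of 0.717 (0.578 to 0.878). Psmd10 lies on the X chromosome, and the libraries differ in sex-linked genes, so sex and genotype cannot be told apart in its ratio.

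**Figure D3:**
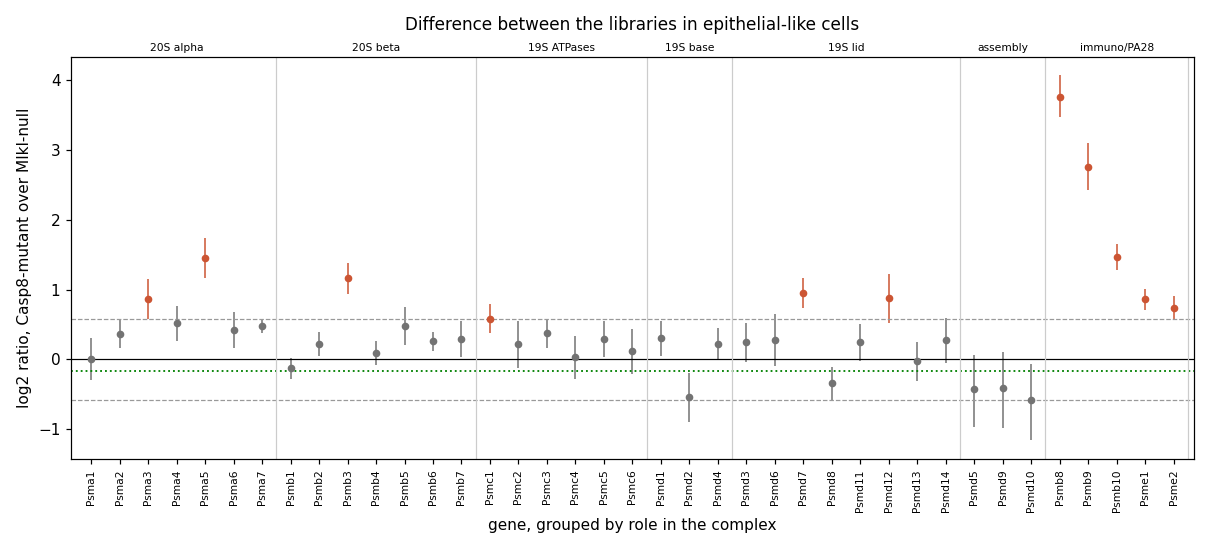
Log2 ratio of Casp8-mutant over Mlkl-null in epithelial-like cells for the constitutive genes and the 5 immunoproteasome and PA28 genes. Bars are 95% conditional exact intervals, red points met the size rule, dashed lines are at 1.5-fold and the dotted green line is the median of all genes tested, -0.17. Among the constitutive genes 6 points are red and 3 chaperone genes lie below 0. All 5 immunoproteasome and PA28 genes are red.

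The genes of the replacement subunits had larger ratios. All 5 immunoproteasome and PA28 genes were higher in Casp8-mutant epithelial-like cells, with a median log2 ratio of 1.47. Psmb8, which replaces Psmb5, was at 21.5 CPM (17.8 to 25.8) and 294 CPM (271 to 318), a ratio of 13.6 (11.2 to 16.8). Psmb9, which replaces Psmb6, was at 18.7 and 127 CPM, a ratio of 6.76 (5.36 to 8.63), and Psmb10, which replaces Psmb7, at 85.6 and 237 CPM, a ratio of 2.77 (2.43 to 3.15). Psme1 and Psme2, the subunits of the PA28 activator ring, had ratios of 1.82 (1.64 to 2.01) and 1.67 (1.48 to 1.88). All 5 immunoproteasome and PA28 genes were called higher in each of the 4 pairings. Their medians were 1.13 for Tff3 and Muc2, 1.246 for Ranbp1 and Ptma, 2.27 for Gpx3 and 2.13 for Rn7sk and Gm23935. The share of all genes called higher in every pairing was not counted. Psmb8 ratios ran from 12.7 (8.31 to 21.3) to 75.1 (34.1 to 259) over the pairings. The exons of Psmb9 overlap Tap1 and those of Psmb8 overlap Gm20496, both on the opposite strand, and Psme2 has a near copy, Psme2b, at 166 and 281 CPM. All 8 interferon-induced genes looked up beside them were higher, from Irf1 at a ratio of 2.98 to Isg15 at 108.

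Other genes of the pathway were mostly within the size rule in epithelial-like cells. Of the further activators and the inhibitor, 0 of 3 met it, from Psme3 (0.935) to Psmf1 (1.06). Of the factors that assemble the 20S core, 1 of 5 was higher: Psmg3, at 15.5 and 31.5 CPM, a ratio of 2.03 (1.44 to 2.84), while Psmg1 was at 0.913 and the maturation factor Pomp at 1.23. Of 4 further cap subunits and attached deubiquitinases measured, the ubiquitin receptor gene Adrm1 was higher (1.97, 1.497 to 2.57), and Sem1 lay at 0.99. The tissue-restricted subunit genes Psma8 and Psmb11 had 0 and at most 1 UMI in this class. Of 13 genes of ubiquitin and its delivery, 3 were higher and 1 lower. The highest ratio was that of Rps27a (2.31, 2.16 to 2.47), a ubiquitin precursor, and the polyubiquitin gene Ubb was also higher (1.69). Rps27a also encodes a ribosomal protein, and the summed share of ribosomal protein genes moved in the same direction, as given above. The shuttle factor gene Ubqln1 was lower, at 67.4 and 23.6 CPM, a ratio of 0.354 (0.254 to 0.474).

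The known regulators of proteasome genes showed 0 higher and 3 lower of 7. Nfe2l1 was at 75.3 and 72.8 CPM, a ratio of 0.969 (0.796 to 1.17). Its relative Nfe2l2 was lower at 90.8 and 55.1 CPM, a ratio of 0.609 (0.49 to 0.747), and so was Ddi2, the protease that activates Nfe2l1, at 38.9 and 19.2 CPM, a ratio of 0.498 (0.341 to 0.696). Among the NF-Y genes, Nfyc was lower (0.606, 0.341 to 0.987) and Nfya had the highest ratio of the list, 1.29 (0.815 to 1.96). As a complex outside the pathway, the cytosolic chaperonin had 0 of 8 genes past the size rule, with a median of 0.12 and ratios from Cct6a (0.897) to Cct3 (1.32). Its summed level was 789 and 859 CPM, a ratio of 1.09 (1.03 to 1.15).

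Cells were also compared at equal depth. Each epithelial-like cell was thinned at random to 2000 UMIs, which left out 130 and 237 shallower cells and kept 1057 and 352. This also changed the mix of clusters. Casp8-mutant cluster 23, at 2995 CPM, had a median of 1635 UMIs per cell, so most of its cells were left out. Cluster 18, at 4409 CPM, had a median of 4755. The part of this change in the values below was not tested. The kept cells carried a median of 6 (quartiles 4 and 8) and 7 (5 and 9.25) UMIs of the 34 members, with means of 5.92 and 7.49. Cells without a member UMI numbered 11 of 1057 and 1 of 352. The distributions overlapped over nearly their whole range. Thinned to 1000 UMIs, which kept 1187 and 579 cells, the medians were equal at 3 and 3 (quartiles 1 and 4, and 2 and 5), with means of 2.93 and 3.47. Without thinning the order of the medians was the opposite, 11 and 7, with the unequal depths given above.

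**Figure D4:**
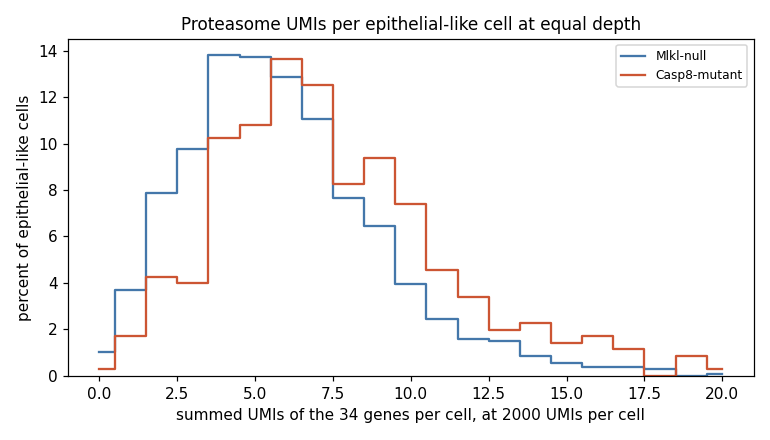
Distribution over epithelial-like cells of the summed UMIs of the 34 genes per cell, after thinning each cell to 2000 UMIs. The lines give the percent of the 1057 Mlkl-null and 352 Casp8-mutant cells at each number. The medians are 6 and 7, and the lines overlap broadly.

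Kinds of epithelial cells within a library differed in summed level by more than the pooled libraries did. The members were left out of the genes used for clustering, so their levels did not shape the clusters. Among Mlkl-null clusters of at least 10 cells, summed levels ran from 1978 CPM (1849 to 2113) in the Apoa4-led cluster 9 to 4356 CPM (4220 to 4495) in cluster 2. Clusters with Ranbp1 and Ptma among their leading genes were then set against those with Apoa4, an apolipoprotein gene of absorptive enterocytes, within each library, a contrast chosen after the cluster levels were seen. The Apoa4 sides were unlike: in the Mlkl-null library they were clusters 5 and 9, and in the Casp8-mutant library 183 of the 196 cells were of cluster 23, which has Gpx3 as its first leading gene and also stands in the Gpx3 pairing. The sizes of the contrasts are therefore not comparable between the libraries. In the Mlkl-null library, 22 of 34 members were higher in the Ranbp1-led cells (32.4% of 10008 genes tested) and 0 lower (18.6%), with a median of 0.78 against 0.26 over all genes. The summed levels were 4362 CPM in 120 cells and 2497 CPM in 473 cells, a ratio of 1.75 (1.67 to 1.83). In the Casp8-mutant library, 12 were higher (32.5% of 7192) and 1 lower (24.6%), with a median of 0.35 against 0.23. The summed levels there were 4409 CPM in 169 cells and 2978 CPM in 196 cells, a ratio of 1.48 (1.38 to 1.59). In both libraries 11 members were higher, all but Psmd6 and Psmd7 of the 20S core. Among them Psma7 had ratios of 2.24 (1.98 to 2.53) and 2.01 (1.65 to 2.48), and Psmb6 of 1.83 (1.56 to 2.15) and 1.90 (1.43 to 2.61). How many of all genes were higher in both libraries was not counted. The overlap of 11 therefore has no background and cannot be read as a trait of the members.

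Members had UMIs in every named class, but UMIs of free RNA may be among them. Epithelial markers, which fibroblast-like and myeloid-like cells should lack, summed to 8897 and 8372 CPM and to 8764 and 7704 CPM there, against 60813 and 47453 CPM in epithelial-like cells. The part of free RNA in the levels of the members was not tested. By class, summed levels were lowest in erythroid-like cells, at 1860.2 CPM (1556 to 2206) in 20 cells and 2185 CPM (1762 to 2680) in 26 cells, below the intervals of the epithelial-like class in both libraries. Haemoglobin genes led this class and count in the total that its levels are divided by. A level without them was not calculated, so the low share does not show fewer member transcripts per cell. Lymphoid-like cells had 4873 CPM (4083 to 5771) in 13 cells and 3968 CPM (3284 to 4752) in 18 cells. Glia-like cells, found in the Mlkl-null library only, had 4577 CPM (3971 to 5250.2) in 26 cells. Enteric neuron-like cells had 4617 CPM (4017 to 5279.96) in 19 cells and 2637 CPM (1815 to 3703) in 8 cells. Enteroendocrine and islet-like cells had 3151 CPM (2875 to 3446) and 2866 CPM (2470.3 to 3308). Intervals of neighbouring classes overlapped in many cases, so a full order of the classes cannot be read.

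**Figure D5:**
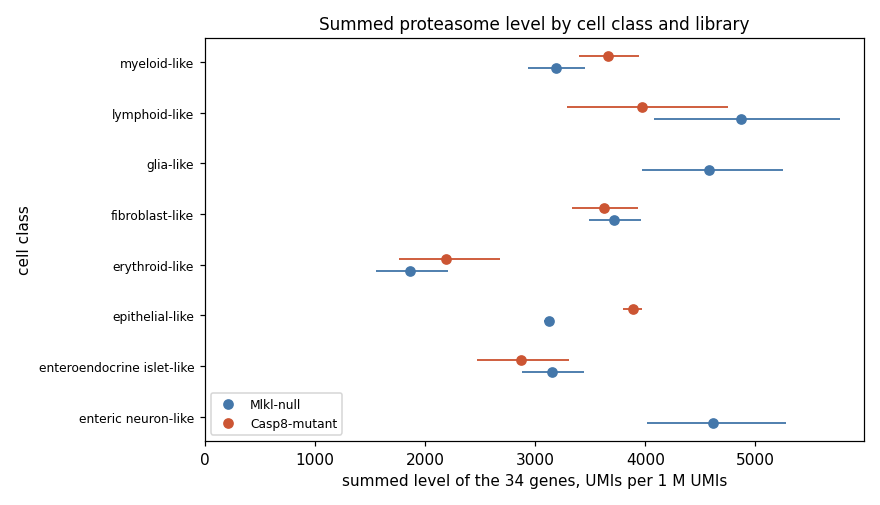
Summed level of the 34 genes by cell class and library, in UMIs per 1 M UMIs, for classes with at least 10 cells of a library. Points are libraries and bars are exact 95% Poisson intervals of counting error. Among the classes drawn for both libraries, the intervals lie apart in the epithelial-like class and overlap in the others. Erythroid-like cells lie lowest in both libraries, with haemoglobin genes counted in the class total.

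In fibroblast-like cells the summed levels of the libraries did not separate. The members took 3720 CPM (3489 to 3961) and 3623 CPM (3333 to 3932), a ratio of 0.974 (0.877 to 1.08). Of 34 members 28 were measured, of which 2 were higher (14.3% of 3353 genes tested) and 2 lower (16.6%), with a median of -0.06 against -0.19 over all genes. Psmb3 (2.21, 1.199 to 4.17) and Psma5 (1.999, 1.03 to 3.97) were the higher ones, and the lid genes Psmd3 (0.209, 0.0355 to 0.594) and Psmd8 (0.418, 0.147 to 0.926) the lower ones. The summed ratio was 1.12 (0.985 to 1.28) for the 20S core, an interval that includes 1, and 0.758 (0.632 to 0.905) for the 19S genes with their assembly factors. These values rest on few cells, as the 10 deepest of each library held 51.3% and 53.4% of the class's UMIs. Without them 0 members were higher and 0 lower, and the summed ratio was 0.822, with both the core (0.863, 0.695 to 1.06) and the 19S genes (0.768, 0.588 to 0.991) below 1. Smooth muscle markers in this class summed to 7787 CPM (9 of 9 found) and 1032 CPM (8 of 9, Synpo2 at 0), and granulocyte markers to 23.0 CPM (3 of 14) and 3221 CPM (13 of 14). Erythroid markers summed to 2434 and 9643 CPM (7 of 9 in each), and the part of these markers was not tested. The chaperonin genes took 968 and 503 CPM here, with 2 of 8 lower. All 5 immunoproteasome and PA28 genes were higher, with a median of 2.01, among them Psmb8 at 15.3 and 327 CPM (19.2, 7.86 to 81.4).

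In myeloid-like cells 23 members were measured, of which 2 were higher (16.5% of 2909 genes tested) and 0 lower (12.5%), with a median of 0.02, equal to that of all genes. The summed levels were 3184 CPM (2932 to 3452) and 3665 CPM (3399 to 3946), a ratio of 1.15 (1.03 to 1.29). Of the Mlkl-null cells 42 lay in cluster 14 and 19 in cluster 15, and all 110 Casp8-mutant cells lay in cluster 15, where the levels were 3332 CPM (2858 to 3862) and 3665 CPM, with overlapping intervals. As in the epithelial-like class, the alpha ring had the highest summed ratio of the subunit groups, 1.68 (1.36 to 2.07), and without the 10 deepest cells of each library it was 1.59 (1.26 to 2.04). In fibroblast-like cells the alpha ring had 1.23 (1.02 to 1.48), and 0.774 (0.553 to 1.06) without the 10 deepest cells of each library. The myeloid-like value was not calculated within cluster 15 alone. Psma7 was at 265 and 588 CPM, a ratio of 2.21 (1.57 to 3.17), and Psma2 at 97.3 and 198 CPM, a ratio of 2.004 (1.13 to 3.78). The lowest measured ratios were those of Psmc4 (0.496, 0.178 to 1.19) and Psmd1 (0.54, 0.229 to 1.16), whose intervals include 1. Without the 10 deepest cells of each library, Psma7 stayed higher at 2.33 (1.56 to 3.62), Psma2 lost its call at 1.60 (0.84 to 3.28), since the interval included 1, and Psmc4 was called lower at 0.396 (0.133 to 0.98). Myeloid markers themselves summed to 37763 and 14841 CPM and erythroid markers to 3092 CPM (6 of 9) and 17355 CPM (9 of 9). Granulocyte markers summed to 32.4 CPM (2 of 14) and 4227 CPM (13 of 14), with S100a8, Ngp, Camp and Ltf at 0 in Mlkl-null, and the part of these markers was not tested. None of the 5 immunoproteasome and PA28 genes met the size rule here. Psmb8 was already at 389 CPM in Mlkl-null myeloid-like cells and at 479 CPM in Casp8-mutant ones, a ratio of 1.23 (0.894 to 1.70). Whether the ratios differ between classes was not tested.

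Over all cells of each library together, 5 members were higher (22.3% of 15326 genes tested) and 1 lower (26.7%), with a median of 0.19 against -0.16. The higher ones were Psma5, Psmb3, Psma3, Psmd7 and Psmd12, and the lower one was Psmd2, at 63.5 and 41.5 CPM, followed by Psmd10 at 27.2 and 19.2 CPM, which did not meet the rule. The summed ratio was 1.19 (1.16 to 1.22).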

How the data were processed

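Libraries were made with the 10x Chromium 3' v2 chemistry, per the labels' protocols, and the authors deposited 1 matrix of raw UMI counts per embryo, with genes in rows and barcodes in columns. Cell Ranger 3.0.2, Seurat 3.0 and the mm10 build appear, per the submitters' processing notes, without a role, and the sources used here give neither settings nor the handling of strand. Gene symbols came from GENCODE M21 (52403 of 52636 gene IDs), and promoters from RefSeq (GRCm38.p6).

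The 34 members, the related lists and the marker lists were chosen with earlier results of these data known. Barcodes with fewer than 500 genes (39 in Mlkl-null, 139 in Casp8-mutant) or over 20% mitochondrial UMIs (0 and 0) were left out, as were doublets called by Scrublet (4 and 2). These few calls are under 0.5% of each library, so doublets may remain. Cells were scaled to 10000 UMIs and clustered with scanpy 1.11.5 (30 principal components, 15 neighbours, Leiden resolution 1, seed 0) on 3413 variable genes, without members, listed genes or sex-linked genes. This gave 24 clusters, 13 of them epithelial-like. A cluster was called X-like from marker genes among its leading genes and marker detection, by a rule settled after the clusters were seen. Classes may therefore differ from those of the study.

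UMIs were summed per library and class and divided by the class total (CPM, per 1 M). A level has an exact Poisson interval, a ratio a conditional exact interval and a share a Clopper-Pearson interval, all at 95% and for counting error only, as there was 1 embryo per group. A log2 ratio has 0.5 UMI added to each sum. Genes with at least 20 UMIs over both libraries were tested for size, with a call at 1.5-fold and an interval leaving out 1. The ratio calculation was tested on simulated data with known folds. Depth was 6290008 and 2804929 UMIs, with medians of 3654 and 1797.5 UMIs per barcode.

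Named in full are the cutting subunits, every member past the rule in epithelial-like cells, the 2 highest and the 2 lowest members in each other class compared, the immunoproteasome and PA28 genes, and the highest and lowest gene of each related list. Other scalings, cell filters, doublets kept, other clusterings, thinning, other fold rules and single kinds of clusters were tried. The pairings of clusters, the contrast within a library and the removal of the 10 deepest cells were added after the data were seen. Python 3.11.15, numpy 2.4.6, scipy 1.17.1, pandas 2.3.3 and matplotlib 3.10.9 were used.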

Additional observations from a re-analysis of the deposited data

Results flagged for a closer look

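For 3 members the ratios of Casp8-mutant over Mlkl-null lay on opposite sides of 1 in the pooled epithelial-like and fibroblast-like classes, with intervals that did not overlap. Psma4, of the alpha ring, had 1.43 (1.199 to 1.70) and 0.548 (0.262 to 1.02). Psmd3, of the lid, had 1.19 (0.972 to 1.44) and 0.209 (0.0355 to 0.594). Psmd7, of the lid, had 1.94 (1.68 to 2.25) and 0.716 (0.382 to 1.251). With 1 embryo per genotype the difference between the classes was not tested. Within the epithelial-like class the pairings of clusters did not all lie above 1: the ratios were 0.845 (Gpx3) and 0.872 (Tff3 and Muc2) for Psma4, and in the Tff3 and Muc2 pairing 0.890 for Psmd3 and 0.742 for Psmd7, the same side as in fibroblast-like cells. Without the 10 deepest fibroblast-like cells of each library, the fibroblast-like ratios were 0.42 for Psma4, 0.452 for Psmd3 and 0.402 for Psmd7, and the intervals of Psma4 and Psmd7 still lay below those of the epithelial-like class, while that of Psmd3 (0.0401 to 1.84, on 9 and 2 UMIs) did not.

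Barcodes left out of all comparisons also carried UMIs of the 34 genes. The 43 such barcodes of Mlkl-null held 98 member UMIs, 832 CPM (675 to 1014), and the 141 of Casp8-mutant held 175, 859.5 CPM (737 to 997). Haemoglobin genes took 71.9% and 69.6% of the UMIs of these barcodes.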

How the results depend on the processing

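No paired analysis was possible because each group has 1 library. Of the values for lists and classes under the alternatives, 277 counted as unchanged, 48 moved further and 1 reversed. A count was unchanged if it moved by at most 1.5 times, and a summed ratio if it stayed within its counting interval. A median was unchanged if it shifted by less than the median counting error of its genes, which is not an interval of the median itself. Of the ratios of single genes, 637 kept their side of the rule, 41 came to meet it, 19 ceased to meet it and 5 reversed. The single genes were the members with the immunoproteasome and PA28 genes. Part of the values could not move under some settings. Another fold rule leaves every median and summed ratio as it was, the UMI minimum leaves sums as they were, and another clustering leaves values over all cells as they were. The tally is therefore not a measure of how stable the results are. The cause of the changes was not tested. The values that moved follow.

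Scaling by the median of ratios gave a summed ratio of 1.31 in epithelial-like cells and 1.27 over all cells, 1 higher member in fibroblast-like cells and 0 lower members over all cells. It shifted the median of all genes by -0.13 in fibroblast-like cells. Totals without haemoglobin, mitochondrial and ribosomal genes gave summed ratios of 1.32 and 1.26 and 0 lower members over all cells. With at least 1000 genes per cell the summed ratios were 1.30 and 1.249, with 1 lower member in epithelial-like cells (Psmd10, 0.54) and 2 over all cells. With no cell filter Psmd10 was the 1 lower member (0.665), and the ratio over all cells was 1.14. With doublets kept the epithelial-like summed ratio was 1.11, and 1 fibroblast-like member was lower. This setting added only 4 and 2 barcodes but clustered and named all cells anew. How many cells changed class was not counted. Thinning to 2000 UMIs gave medians of -0.16 for the base non-ATPases and 1.05 for the immunoproteasome and PA28 genes. Without clusters led by nuclear RNAs, 2 epithelial-like members were lower (Psmd2, 0.625, and Psmd5, 0.602), with summed ratios of 1.19 and 1.14.

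With a smaller fold in the size rule, 12 epithelial-like members were higher and 3 lower, and 11 and 3 over all cells. At 2-fold, 2 epithelial-like members, 3 immunoproteasome and PA28 genes, 1 fibroblast-like member and 2 members over all cells were higher, and 0 over all cells were lower. The share of all genes called was not counted at these folds, so the counts cannot be set against a background.

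In the Tff3 and Muc2 pairing, 1 member was higher and 1 lower, with a median of -0.21 and a summed ratio of 0.871, and Psma3 (0.813), Psmd7 (0.742) and Psmd12 (0.881) reversed. In the Ranbp1 and Ptma pairing the values were 2, 4, -0.0029 and 1.011. In the Gpx3 pairing 2 members were lower, the summed ratio was 1.007, and Psma3 (0.987) and Psmb3 (0.991) reversed. In the Rn7sk and Gm23935 pairing 19 members were higher, with a median of 0.94 and a summed ratio of 2.01.

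Without the 10 deepest cells of each library, fibroblast-like cells had 0 higher and 0 lower members and a summed ratio of 0.822, and myeloid-like cells 1 and 1. The ratio of mean member UMIs per cell was 1.26 at 2000 UMIs, 1.18 at 1000 UMIs and 0.954 without thinning. Fibroblast-like cells at 1000 genes, at a finer clustering and after thinning, and myeloid-like cells at 1000 genes and after thinning, had under 50 cells in a library and gave no value. Depth limits single members most in the fibroblast-like and myeloid-like classes, where 6 and 11 of the 34 were not measured.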

Other observations

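Members with longer annotated transcripts tended to have lower ratios in epithelial-like cells, with exceptions such as Psma3 (2846 bases, log2 ratio 0.87). Over the 34 members, the length of the longest annotated transcript (766 to 4397 bases) and the log2 ratio had a Pearson correlation of -0.37 and a Spearman correlation of -0.35. Over all 10683 protein-coding genes tested in that class the values were -0.18 and -0.15. These correlations run across genes of the same 2 libraries, which share depth and class makeup, and genes are not independent replicates.

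Annotated copies of beta subunit genes were counted beside their parents in epithelial-like cells. Psmb7-ps2 had 1.498 and 6.89 CPM, on 8 and 14 UMIs, and Psmb5-ps had 2.25 and 4.92 CPM, on 12 and 10 UMIs. Whether reads of the parent genes were assigned to these copies was not tested.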
